A study of Mus musculus with 6 samples.

Results

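A set of 10 imprinted genes of growth control and stem cell maintenance was followed across 6 mouse arrays: H19, Meg3, Rian, Dlk1, Peg3, Mest, Plagl1, Cdkn1c, Grb10 and Ndn. They were chosen by symbol, with earlier results of these data known. Each was read from the brightest probe set (a group of array probes summarised to a single value) that the platform annotation ties to that symbol alone. Of the 10 genes listed, 9 had such a probe set, among 22180 genes so represented on the array. H19 had none, since its probe set is annotated to H19 and the microRNA gene Mir675 together, and that value is given apart from the others and cannot be assigned to H19 alone.

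The series asked how expression changes while fibroblasts are induced toward parvalbumin (PV) neurons, which are fast-spiking inhibitory neurons. Total RNA of 6 samples was hybridised, 1 array for each group. A sample labelled embryonic fibroblasts (MEF), with no day of induction given, came first. Fibroblasts induced to parvalbumin neurons (iPV) for 3, 7 and 14 days followed. The last were day 14 iPV cells sorted as GFP+ (green fluorescent) and a sample labelled endogenous parvalbumin neurons. MEF served as the reference, though the labels do not state that it was uninduced. All 6 samples are labelled PV-GFP transgenic, strain C57BL/6, from embryos of 13.5 days, and all carry the same text on culture in D10 medium, adenovirus infection and induction, MEF and the labelled endogenous sample included. The labels name neither the genes the adenovirus carried nor the construct of the transgene, and they do not say how many embryos were pooled.

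Values are log2 intensities, on which a difference of 1 is a 2-fold difference. No group had a replicate, so none of the differences has a replicate check and no test or standard error was possible. The only measure of error was a technical spread of 0.27 to 0.50 over the 15 pairs of arrays, taken from how far the 2 brightest probe sets of a gene differed in their own log2 differences. It leaves out all variation between cultures and animals. Before differences were taken, any value below 5.01 (the floor, set at the median over probe sets other than controls) was raised to 5.01. Array medians lay between 4.96 and 5.06, and between 12501 and 12865 genes per array lay above the floor.

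The labelled cell types were set against marker genes before the imprinted genes were read. Of 14 fibroblast markers, 13 or 14 were above the floor on each array, with mean levels between 9.94 and 10.36, and the array labelled endogenous PV had 10.34. Of 10 markers of parvalbumin and GABA neurons, 3 to 5 were above the floor, and their mean after flooring lay between 5.13 and 5.26. On the array labelled endogenous PV, Gad2, a synthetic enzyme of the transmitter GABA, had 4.09, under the floor, and Pvalb itself had 5.48, while the collagen gene Col1a1 had 12.34. That array is therefore called the labelled endogenous PV array throughout, and its marker levels did not bear out its label. As a list, the parvalbumin and GABA markers did not bear out the iPV labels either. Sorted cells had 3 of the 10 above the floor, with Gad2 at 4.49, Pvalb at 6.29 and Col1a1 at 12.39. Pvalb was lowest in MEF, at 5.23, and had 5.76, 6.15 and 5.80 at days 3, 7 and 14. It was the 1 marker of the 10 at least 2-fold higher in sorted cells than in MEF, against 3.67% of all genes.

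Imprinted genes are transcribed mainly from a single parental copy, which is fixed by DNA methylation laid down in the egg or sperm. Many of them set fetal growth, with several paternally expressed members promoting it and several maternally expressed members limiting it, and many are shut down after birth but kept in stem and progenitor cells. Dlk1, Meg3 and Rian lie in the Dlk1-Meg3 domain of chromosome 12, whose maternally expressed RNAs include a large cluster of microRNAs. H19 and Cdkn1c lie in neighbouring domains of distal chromosome 7, and H19 is the host of microRNA miR-675. The chromosome 12 domain was measured with probe sets named for its microRNA genes as well as with the host transcripts. Mir675 was measured only through the probe set it shares with H19. The mature microRNAs concerned are shown here. The sequences are from RefSeq on build GRCm38.p6, written 5′ to 3′, with the seed (bases 2 to 8) in capitals. miR-675 is encoded on the minus strand at chr7:142577112-142577133 (5p) and chr7:142577078-142577099 (3p).
miR-675-5p: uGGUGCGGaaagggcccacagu
miR-675-3p: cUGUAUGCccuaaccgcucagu
The next 4 microRNA genes belong to the Dlk1-Meg3 domain and had probe sets at least 2-fold apart in 2 or more of the comparisons below with both values above the floor.
miR-665-5p: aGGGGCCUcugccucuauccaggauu
miR-665-3p: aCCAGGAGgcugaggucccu
miR-382-5p: gAAGUUGUucgugguggauucg
miR-382-3p: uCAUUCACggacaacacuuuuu
miR-667-5p: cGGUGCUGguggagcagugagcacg
miR-667-3p: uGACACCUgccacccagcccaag
miR-679-5p: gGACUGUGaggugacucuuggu
miR-679-3p: aGCAAGGUccuccucacaguag
None of these 10 mature microRNAs shares its seed with another of them.

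Promoter windows of 300 bases, 250 before and 50 after an annotated start, were given by RefSeq on GRCm38.p6 for 8 of the 10 genes. Both strands of each window were searched for GGGGCCCC (a binding motif of the Plagl1 protein), TGACGTCA (the cAMP response element), TATAAA and CCAAT. Those letters are held by 1.08%, 1.79%, 13.6% and 37.4% of 32851 promoter windows of this length. The windows of Meg3 and Peg3 are shown because each of them holds TGACGTCA, and that of Peg3 holds GGGGCCCC as well. The windows of Rian, Dlk1, Mest, Plagl1, Grb10 and Ndn, and a second Meg3 window, hold 0 of these 4 motifs. Capitals mark the matches, each printed in the direction of its gene. In the Meg3 window the 2 matches to TATAAA, on opposite strands, overlap. A match describes letters only and is not a measured binding site.
Meg3 promoter, chr12:109540746-109541045, plus strand: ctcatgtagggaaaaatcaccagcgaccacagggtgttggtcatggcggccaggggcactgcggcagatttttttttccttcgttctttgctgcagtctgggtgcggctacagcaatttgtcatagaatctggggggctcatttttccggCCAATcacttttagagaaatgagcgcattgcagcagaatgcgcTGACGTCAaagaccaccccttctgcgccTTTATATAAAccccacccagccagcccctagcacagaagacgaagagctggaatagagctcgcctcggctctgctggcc
Peg3 promoter, chr7:6730370-6730669, minus strand: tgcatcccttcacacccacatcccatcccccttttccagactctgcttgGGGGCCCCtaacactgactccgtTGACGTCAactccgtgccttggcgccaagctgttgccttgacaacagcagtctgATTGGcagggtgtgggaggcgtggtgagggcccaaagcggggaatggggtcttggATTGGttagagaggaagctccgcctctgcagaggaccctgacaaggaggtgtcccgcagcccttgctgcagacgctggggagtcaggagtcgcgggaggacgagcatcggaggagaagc

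Of the 9 genes, 5 differed by at least 2-fold between their highest and lowest array, which is 55.6% of them, against 11.5% of all 22180 genes and 20.1% of the 10998 genes above the floor on every array. They were Dlk1, Mest, Plagl1, Cdkn1c and Peg3. The median span of the 9 genes was 1.18, against 0.37 over all genes and 0.65 over the 10998. The list was chosen with earlier results of these data known. Shares set against all genes, here and below, therefore describe the list and are not a test of it. Of the 22180 genes, only 14295 lay above the floor on any array, and the rest could not be called. Of the 8 members above the floor on every array, 5 had their lowest value on the unsorted day 14 array (Rian, Dlk1, Mest, Plagl1 and Grb10), where 10.5% of the 10998 genes had theirs. Day 7 held the highest value of 3 of the 8 (Dlk1, Mest and Cdkn1c), against 10% of the 10998 genes. Of these only Dlk1 exceeded its next array by more than the technical spread (gap 0.88). At day 14 only Mest (gap 1.03) and Plagl1 (gap 0.62) lay below the next array by more than the technical spread, while Rian, Dlk1 and Grb10 were within it of MEF. Counted over all 9 genes, the day 14 array was lowest for 6 as deposited, for 7 after quantile normalization and for 8 after centring the arrays on housekeeping genes.

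**Figure D1:**
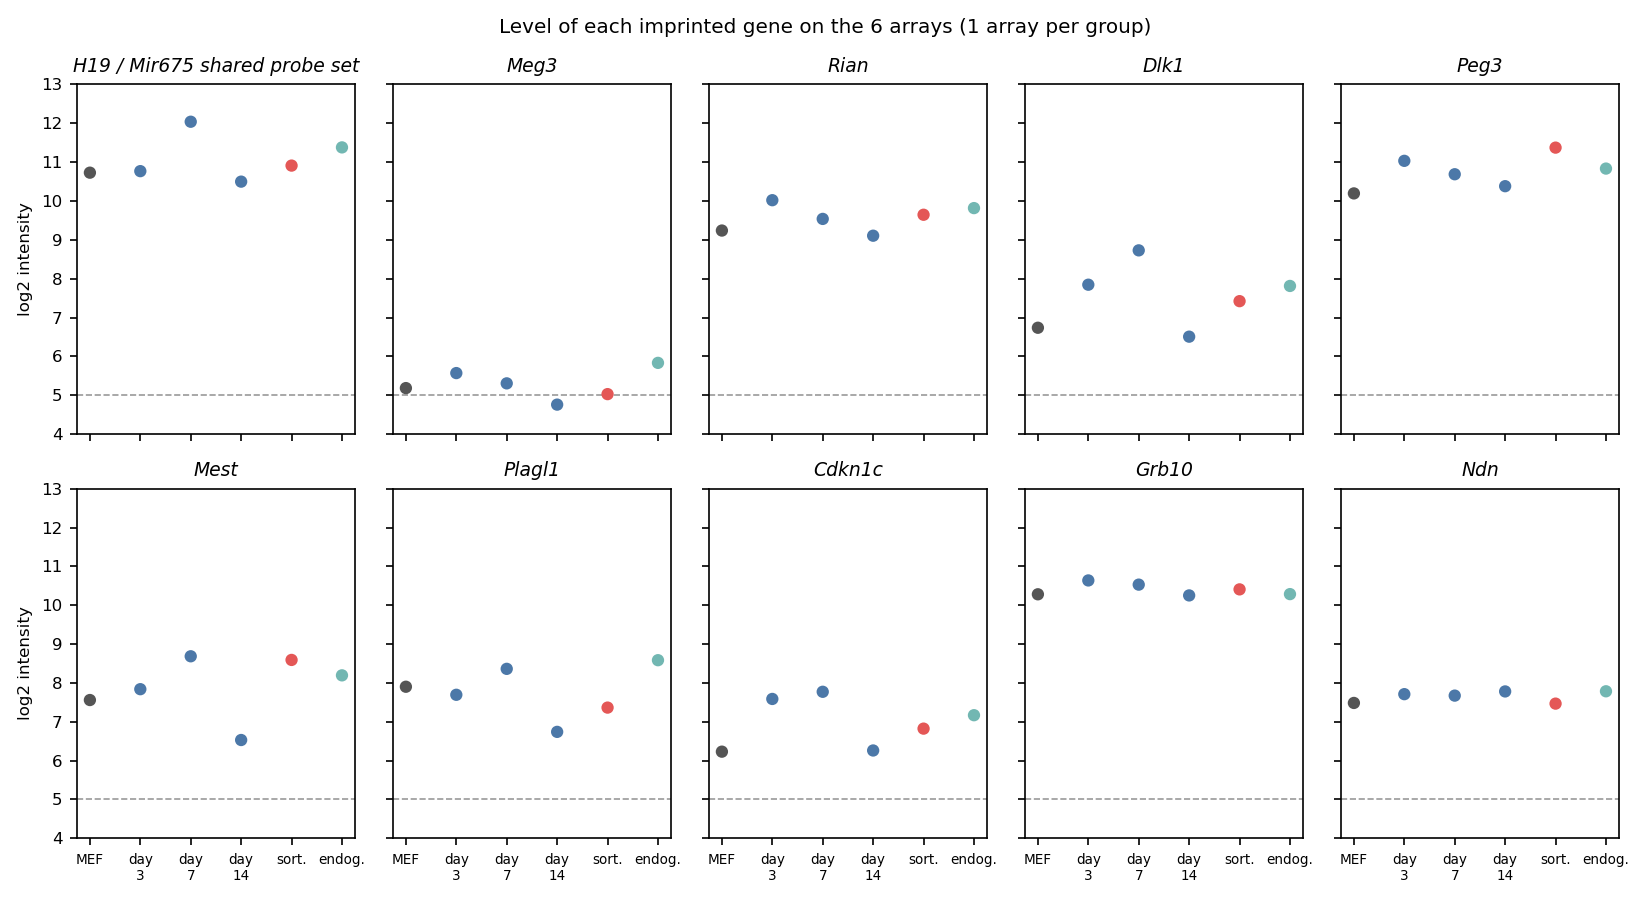
Log2 intensity (vertical axis) of the 9 genes and of the probe set annotated to H19 and Mir675 together, 1 point per array, with the floor of 5.01 dashed; sort. is the sorted day 14 array and endog. the labelled endogenous PV array. Dlk1, Mest and Cdkn1c are highest at day 7 and low at day 14, while Grb10 and Ndn stay within 0.39 and 0.32 of their own lowest array.

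Among the secreted and membrane factors, Dlk1 had the widest span of the group. Dlk1 is a paternally expressed transmembrane protein with EGF-like repeats that restrains differentiation, best known from fat cell precursors. Its log2 level was 6.74 in MEF, then 7.85, 8.73 and 6.51 at days 3, 7 and 14, 7.42 in GFP+ sorted cells and 7.81 on the labelled endogenous PV array. Day 7 stood above the others, day 14 and MEF were lowest, and the gap of 0.23 between those lowest arrays was inside the technical spread of 0.43. The labelled endogenous PV and day 3 values, 0.03 apart, could not be told apart either. Dlk1 was thus 2.16-fold higher than MEF at day 3 and 3.98-fold higher at day 7, and 4.66-fold lower at day 14 than at day 7.

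Mest encodes a paternally expressed protein of the alpha/beta hydrolase fold and is high in mesodermal tissue of the embryo. Its level was 7.56 in MEF, then 7.84, 8.69 and 6.53 at days 3, 7 and 14, 8.59 in GFP+ sorted cells and 8.19 on the labelled endogenous PV array. The unsorted day 14 array stood below all the others by at least 1.03, and sorted cells and day 7 were 0.09 apart at the top, inside their spread of 0.36. Mest is the member that separated the 2 day 14 arrays most, with 4.17-fold more in sorted than in unsorted cells. The microRNA gene Mir335, which lies in an intron of Mest, was under the floor on all 6 arrays, between 1.91 and 3.69, so its probe set gave no level to set beside its host.

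Cdkn1c, the maternally expressed inhibitor of cyclin-dependent kinases also called p57, was at 6.23 in MEF, then 7.59, 7.77 and 6.26 at days 3, 7 and 14, 6.82 in GFP+ sorted cells and 7.17 on the labelled endogenous PV array. Day 3 and day 7 were high and did not differ beyond their spread (gap 0.18, spread 0.33), and MEF and day 14 were low and 0.03 apart. Its closest relatives did not share this order. Cdkn1a, the p21 inhibitor, had 10.43 in MEF, then 10.85, 10.48 and 11.09 at days 3, 7 and 14, 11.35 in GFP+ sorted cells and 10.88 on the labelled endogenous PV array. Cdkn1b, the p27 inhibitor, stayed between 7.09 and 7.50. Of 11 measured paralogues of the listed genes, 0 differed by 2-fold in any of the 9 comparisons. Of the 4 inhibitors of the INK4 family, only Cdkn2c, which inhibits Cdk4 and Cdk6, did so, with 6.06 at day 7 against a day 3 value under the floor, a difference of at least 2.06-fold.

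The transcription factors differed in where they were high. Plagl1, a paternally expressed zinc-finger protein that can arrest the cell cycle and binds several imprinted loci, had 7.90 in MEF, then 7.69, 8.36 and 6.74 at days 3, 7 and 14, 7.36 in GFP+ sorted cells and 8.58 on the labelled endogenous PV array. It was lowest on the unsorted day 14 array, and its upper values, day 7 and labelled endogenous PV, were 0.22 apart with a spread of 0.30. A second Plagl1 probe set was under the floor on all 6 arrays. Of its 40 neighbours in probe set number on the same chromosome, 39 are genes of the minus strand, whereas Plagl1 lies on the plus strand.

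Peg3, a paternally expressed zinc-finger protein with roles in growth, in maternal care and in stem cells, had 10.20 in MEF, then 11.04, 10.69 and 10.38 at days 3, 7 and 14, 11.38 in GFP+ sorted cells and 10.84 on the labelled endogenous PV array. It was highest in sorted cells and lowest in MEF, though day 14 was only 0.19 above MEF, inside the spread of 0.43. From day 7 through labelled endogenous PV and day 3 to sorted cells each neighbouring gap was inside its spread, though sorted cells exceeded the labelled endogenous PV array by 0.54, 1.67 times the spread of that pair. A second probe set, annotated to Peg3 and its antisense RNA Peg3os together, had 7.22, 7.82, 6.90, 6.37, 6.98 and 7.05 on the same arrays in that order. Of its 41 numbered neighbours, 40 are genes of the plus strand, opposite to Peg3, and its highest array was day 3.

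Ndn, the paternally expressed growth suppressor necdin known from neurons that have left the cell cycle, varied least. It had 7.48 in MEF, then 7.71, 7.67 and 7.78 at days 3, 7 and 14, 7.47 in GFP+ sorted cells and 7.78 on the labelled endogenous PV array. Grb10 is an adaptor that dampens insulin and IGF receptor signalling and is expressed from the maternal copy in most tissues but from the paternal copy in neurons. It had 10.28 in MEF, then 10.64, 10.53 and 10.25 at days 3, 7 and 14, 10.41 in GFP+ sorted cells and 10.29 on the labelled endogenous PV array. For both genes, every gap between neighbouring arrays in the order of levels was inside the technical spread. An array of this kind does not read which parental copy is used.

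Among the noncoding RNAs, Rian, a maternally expressed RNA of the chromosome 12 domain that hosts small nucleolar RNAs, had 9.24 in MEF, then 10.02, 9.54 and 9.11 at days 3, 7 and 14, 9.65 in GFP+ sorted cells and 9.82 on the labelled endogenous PV array. Its highest and lowest arrays, day 3 and day 14, were 0.91 apart, and no neighbouring pair in the order differed beyond the spread. A second probe set, annotated to Rian and a further transcript, had 7.58, 8.61, 7.78, 7.09, 8.03 and 8.13 in the same array order. It too was highest at day 3 and lowest at day 14, and its day 3 value was 2.05-fold that of MEF.

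Meg3, the maternally expressed long noncoding RNA for which the domain is named, could not be read with confidence from the probe set the rule selects. That probe set had 5.19 in MEF, then 5.57, 5.31 and 4.76 at days 3, 7 and 14, 5.03 in GFP+ sorted cells and 5.83 on the labelled endogenous PV array, all close to the floor. Of its 39 numbered neighbours on the chromosome, 36 are genes of the minus strand, and Meg3 lies on the plus strand. The probe set shared by Meg3 and Mir770 has 40 of 41 neighbours on the plus strand, and it had 7.55, 7.89, 7.76, 7.25, 8.18 and 8.19 in the same array order. Another, shared with the Mir1906 copies, had 8.48, 8.50, 8.62, 7.79, 9.03 and 8.50. All 3 were lowest on the unsorted day 14 array. Sorted cells exceeded unsorted cells by 0.93 and 1.24 with the shared probe sets, and by 0.02 with the rule's probe set after flooring.

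H19 is a maternally expressed noncoding RNA that restrains growth, and its joint probe set with Mir675 was bright on every array. It had 10.73 in MEF, then 10.77, 12.04 and 10.50 at days 3, 7 and 14, 10.91 in GFP+ sorted cells and 11.38 on the labelled endogenous PV array. Day 7 was 2.48-fold above MEF and 2.41-fold above day 3, and day 14 was 2.91-fold below day 7. Igf2, the growth factor gene that shares enhancers with H19 on the other parental copy, lay outside the naming rule and is given as the neighbour of H19. It had 8.71 in MEF, then 8.43, 9.57 and 8.56 at days 3, 7 and 14, 9.15 in GFP+ sorted cells and 8.95 on the labelled endogenous PV array, so it too was highest at day 7. Its value there was 2.21-fold that of day 3. Igf2r, which encodes the receptor that clears the factor, stayed between 9.84 and 10.30.

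The first comparison asked which imprinted genes differed early in induction. At day 3, 2 of the 9 genes were at least 2-fold higher than MEF, namely Cdkn1c (2.56-fold) and Dlk1 (2.16-fold), against 1.43% of all genes. None was 2-fold lower, against 1.64%. The median over the 9 genes was 0.39, with 8 above 0, where the median of all genes was 0. That 0 follows from the floor, and among all genes above the floor on either array the median was 0.02. Peg3 and Rian followed at 0.84 and 0.78, each more than 2 times the technical spread of 0.32 for this pair of arrays. Centring on housekeeping genes moved the median of all genes, taken without the floor, by -0.18 here. The shift was -0.27 for day 7, -0.24 for day 14, -0.25 for sorted cells and -0.23 for the labelled endogenous PV array, each against MEF. With this centring Dlk1 was at 0.93, below the threshold, and the median of the 9 genes at day 3 was 0.21. Proliferation markers moved with this comparison, and their part in it was not tested: 11 measured genes of cell division had a mean of 7.80 in MEF and 6.45 at day 3, with 11 and 10 of them above the floor. Macrophage markers likewise had 6.56 and 5.36, and interferon response genes 6.39 and 7.35. Of 14 fibroblast markers, 5 were 2-fold lower and 2 were 2-fold higher at day 3, with means of 10.36 in MEF and 9.94. The part of these lists was not tested either.

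At day 7, 3 of the 9 genes were at least 2-fold higher than MEF, against 1.7% of all genes. They were Dlk1 (3.98-fold), Cdkn1c (2.91-fold) and Mest (2.18-fold), and 0 were 2-fold lower, against 0.843%. All 9 lay above their MEF value, with a median of 0.46, and 6 of the 9 did so after centring on housekeeping genes, where Mest was at 0.86. Proliferation markers had the same mean on both arrays, 7.80. Interferon response genes, 9 measured, had a mean of 6.39 in MEF and 7.32 at day 7, with 8 above the floor on each. Macrophage markers had 6.56 and 5.89, and the part of neither list in the result was tested. The comparison of day 7 with day 3 called 0 of the 9 genes in either direction, against 1.3% of all genes higher and 0.528% lower. Its largest differences were Dlk1 at 0.88 and Mest at 0.85, each more than 2.5 times the spread of 0.33. Between these arrays, proliferation markers had means of 6.45 at day 3 and 7.80 at day 7, with 10 of 11 at least 2-fold higher at day 7. Macrophage markers had 5.36 and 5.89, and the part of either list in this comparison was not tested.

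**Figure D2:**
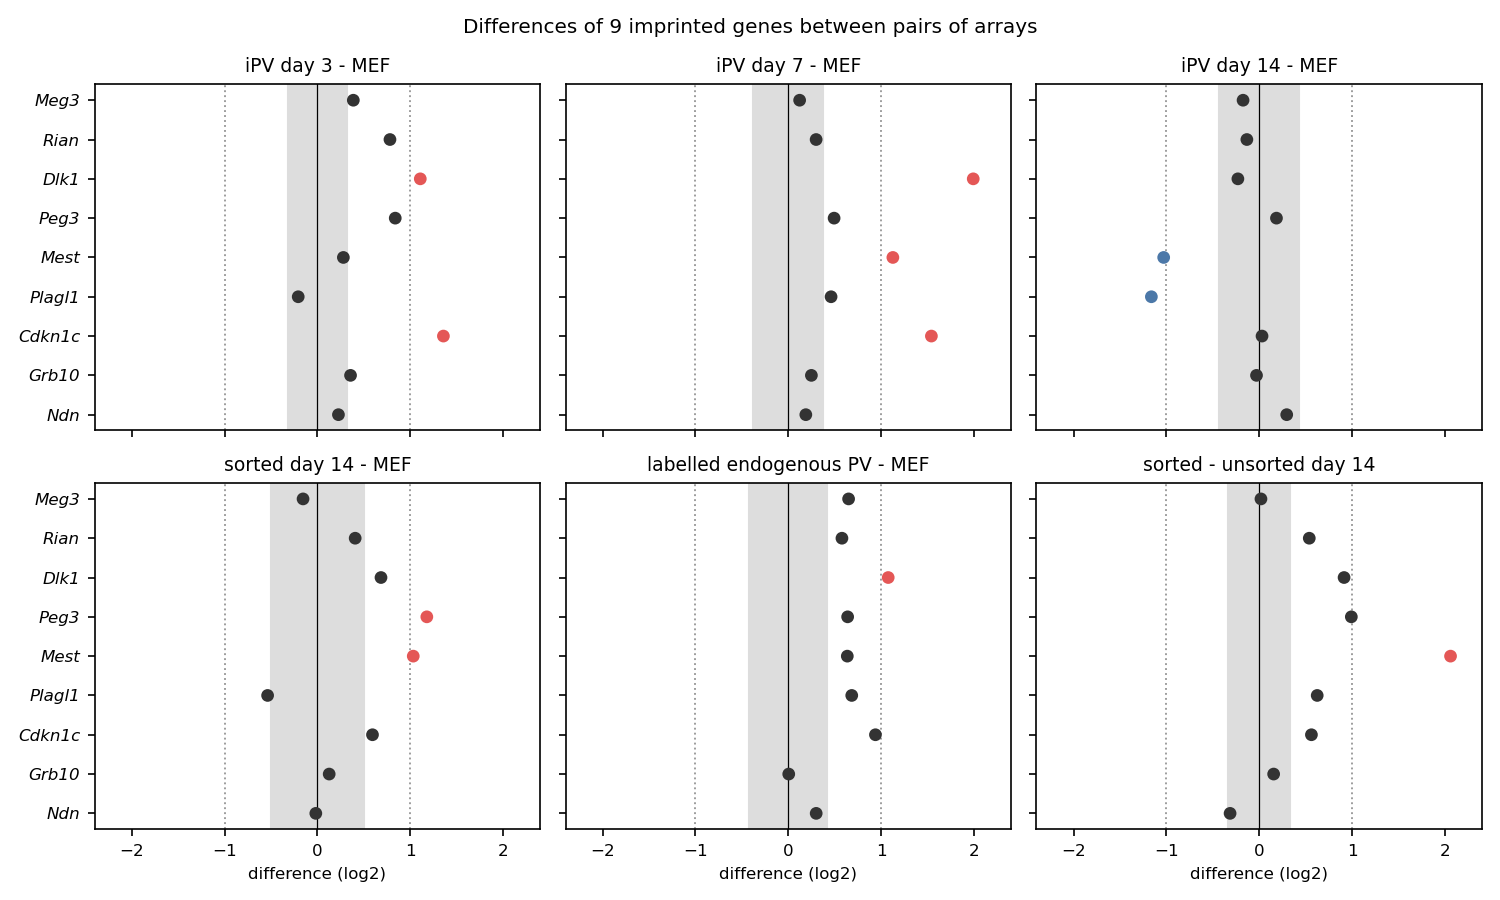
Log2 difference (horizontal axis) of the 9 genes in 6 comparisons of array pairs, 1 point per gene, with dotted lines at 2-fold, grey bands for the technical spread on either side of 0, and red or blue for genes at least 2-fold higher or lower. Dlk1 and Cdkn1c lie furthest to the right at day 7 against MEF (1.99 and 1.54), and Mest at 2.06 for sorted against unsorted cells.

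Between day 7 and day 14, 4 of the 9 genes were lower by at least 2-fold, against 0.825% of all genes, and 0 were higher, against 0.604%. Dlk1 was 4.66-fold lower, Mest 4.45-fold, Plagl1 3.08-fold and Cdkn1c 2.85-fold, each over 5 times the technical spread of 0.27. The joint H19 and Mir675 probe set, at 2.91-fold lower, is given beside them. With the mean of its probe sets in place of the brightest, Plagl1 was at -0.73 and lost its call. The median of the 9 genes was -0.43, and Ndn alone lay above 0, at 0.11. By parental copy, the median was -1.62 over the 5 paternally expressed members and -0.36 over the 4 maternally expressed members with a value. The maternal median takes Meg3 from the rule's probe set near the floor (-0.30) and leaves out H19. The joint H19 and Mir675 probe set had -1.54, and the shared Meg3 probe sets had -0.51 and -0.83. The size of the parental contrast thus depends on the probe sets used. Proliferation markers had a mean of 7.80 at day 7 and 6.42 at day 14, and interferon response genes had 7.32 and 8.26. The part of either in these differences was not tested. In bulk RNA, fewer cells of a type and less RNA per cell cannot be told apart.

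Against MEF, the unsorted day 14 array had 2 of the 9 genes at least 2-fold lower, Plagl1 (2.24-fold) and Mest (2.04-fold), where 1.26% of all genes were. None was 2-fold higher, against 2.1%. The median was -0.13. Proliferation markers were at 7.80 in MEF and 6.42 at day 14, and interferon response genes at 6.39 and 8.26. Macrophage markers had 6.56 and 5.84, with 3 of 10 at least 2-fold lower at day 14. The part of these lists was not tested. With the mean of all its probe sets in place of the brightest, Plagl1 was at -0.20, because its second probe set lies under the floor. Dlk1 and Cdkn1c, 2-fold higher at day 3 and day 7, differed from MEF here by -0.23 and 0.03, each inside the spread of 0.43. All comparisons against MEF rest on the same MEF array.

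Sorting for green fluorescence asked what distinguishes the GFP+ cells of day 14. Sorted cells had 1 of the 9 genes at least 2-fold above unsorted cells, Mest at 4.17-fold, against 1.26% of all genes. None was 2-fold lower, against 0.609%. Peg3 at 1.99-fold and Dlk1 at 1.88-fold lay just under the threshold, at 2.97 and 2.73 times the technical spread of 0.33, and Peg3 passed after quantile normalization, at 1.08. The median was 0.56 with 8 of 9 above 0, Ndn being the exception at -0.31. Among paternally expressed members the median was 0.91, and among maternally expressed members 0.35. The latter again takes Meg3 from the rule's probe set (0.02) and leaves out H19. The joint H19 and Mir675 probe set had 0.41, and the shared Meg3 probe sets had 0.93 and 1.24, so the size of this contrast depends on the probe sets used. Pan-neuronal markers (11 measured, 9 above the floor on both arrays) had a mean of 5.92 in unsorted and 6.46 in sorted cells, interferon response genes had 8.26 and 7.74, and macrophage markers 5.84 and 5.40. Their part in these differences was not tested, and proliferation markers, at 6.42 and 6.52, were nearly level.

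Set against MEF, sorted cells had 2 of the 9 genes at least 2-fold higher, Peg3 (2.26-fold) and Mest (2.05-fold), where 3.67% of all genes were. None was 2-fold lower, against 1.64%. The median was 0.41, with 6 above 0. Both calls were lost after centring on housekeeping genes, with Peg3 at 0.92 and Mest at 0.78, and the call for Mest after quantile normalization, at 0.88. Plagl1 had -0.54, close to the spread of 0.50, which was the widest of any pair of arrays. Macrophage markers (10 measured) had a mean of 6.56 in MEF and 5.40 in sorted cells, with 7 and 5 above the floor, proliferation markers had 7.80 and 6.52, and interferon response genes 6.39 and 7.74. Pan-neuronal markers had 5.62 and 6.46, with 6 of 11 at least 2-fold higher in sorted cells, and fibroblast markers had 10.36 and 10.05. Their part in the result was not tested.

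The labelled endogenous PV array was higher than MEF for all 9 genes, with a median of 0.64. Only Dlk1 was 2-fold higher, at 2.11-fold, against 2.13% of all genes, and 0 were 2-fold lower, against 0.969%. Dlk1 was at 0.84 after housekeeping centring and 0.96 after quantile normalization, and with either scaling 8 of the 9 genes lay above 0. Cdkn1c was next at 0.94. Interferon response genes had a mean of 8.15 on this array against 6.39 in MEF, and proliferation markers 6.73 against 7.80, and their part was not tested. Sorted cells set against this array had 1 of the 9 genes 2-fold lower, Plagl1 at 2.33-fold, where 1.14% of all genes were, and 0 higher, against 1.36%. The median was -0.32. Macrophage markers had a mean of 6.88 on the labelled endogenous PV array, the highest of the 6, with 8 of 10 above the floor, against 5.40 and 5 of 10 in sorted cells. Lyz2, the lysozyme of macrophages, was at 10.05 and 6.03. Pan-neuronal markers had means of 5.68 on the labelled endogenous PV array and 6.46 in sorted cells, where 5 of 11 were at least 2-fold higher, with a median difference of 0.83. Their part in the differences was not tested.

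**Figure D3:**
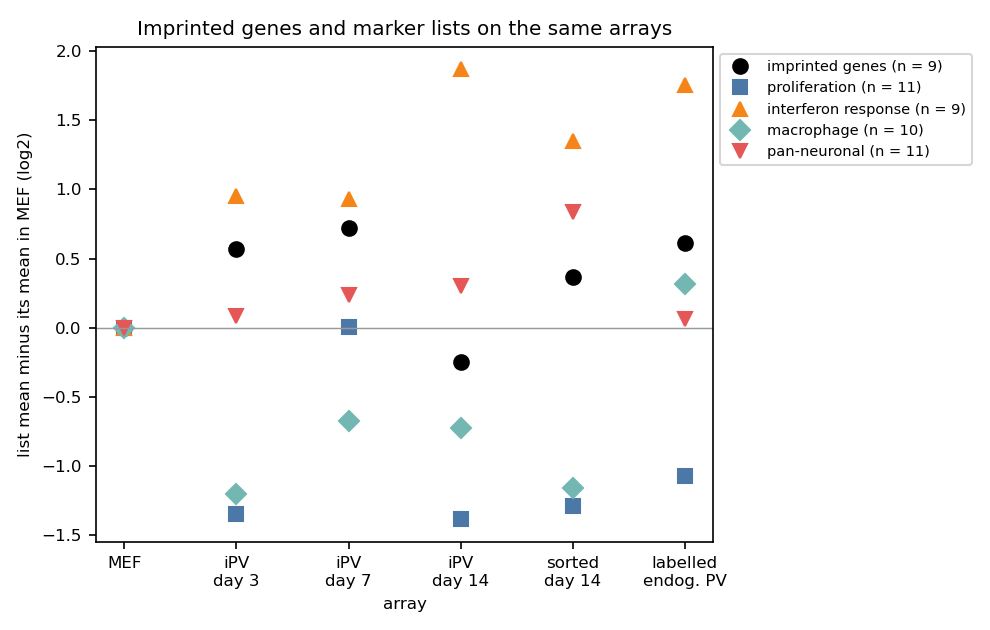
Mean floored log2 level of the 9 imprinted genes and of 4 marker lists on each array, minus the same list's mean in MEF (vertical axis). The imprinted genes, with means of 7.87, 8.44, 8.59, 7.62, 8.24 and 8.48 in array order, lie below MEF at day 14 only. In the same order proliferation markers have 7.80, 6.45, 7.80, 6.42, 6.52 and 6.73, low on other arrays besides day 14. Interferon response genes have 6.39, 7.35, 7.32, 8.26, 7.74 and 8.15, high on the labelled endogenous PV array as well as at day 14.

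The chromosome 12 domain could be followed further through its microRNA genes, of which 34 had a probe set of their own. A probe set named for a microRNA gene may read the precursor or the host transcript and need not read the mature microRNA. Many values were low: 24 of the 34 were above the floor on any array and 10 on every array. After flooring, the median difference from MEF over the 34 was 0.13 at day 3 and 0 at day 7 and at day 14. It was 0.11 for sorted cells and 0.20 for the labelled endogenous PV array. Over 438 other microRNA genes it was 0 each time, as it had to be, since only 171 of them were above the floor on any array. Among genes above the floor on either array of a pair, the domain had 0.42, 0.01, -0.22, 0.50 and 0.48 in the same comparisons. The other microRNA genes had -0.06, -0.08, -0.22, -0.08 and -0.05. Of the 34, the numbers above and below 0 were 19 and 2 at day 3, 19 and 4 for sorted cells, and 21 and 2 for the labelled endogenous PV array. For the other microRNA genes they were 62 and 95, 60 and 96, and 68 and 87. Sorted against unsorted cells gave a floored median of 0.36 over the 34, with 22 above 0 and 1 below. The other microRNA genes had 83 above 0 and 56 below in that comparison. Among genes above the floor on either array, the medians were 0.50 for the domain and 0.10 for the others. Without the floor the medians of the 34 were larger, but they then include 10 genes under the floor on all arrays. Against MEF they were 0.46 at day 3, 0.79 for sorted cells and 0.86 for the labelled endogenous PV array. Sorted against unsorted cells had 0.68. The other microRNA genes had 0.03, -0.08, -0.04 and 0.04 in that order. Of the 10 genes above the floor on every array, 6 had their lowest value on the unsorted day 14 array, as did 29.6% of 81 such microRNA genes from elsewhere. These microRNA genes lie close together and may share a transcript, so they are not independent of each other.

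By count, 3 of the 34 were 2-fold higher at day 3 than in MEF, 5 in GFP+ sorted cells and 6 on the labelled endogenous PV array, and 4 were 2-fold higher in sorted than in unsorted cells. Among all 472 microRNA genes the shares were 1.91%, 3.18%, 3.39% and 3.39%. Lower by 2-fold were 0 of the 34 in these 4 comparisons, where the shares among all microRNA genes were 0.212%, 0.847%, 0.424% and 0.212%. Against MEF, 0 were called in either direction at day 7 (0.636% of all microRNA genes higher and 0.212% lower) or at day 14 (0.847% and 1.91%). Mir665 had 5.66 in MEF, then 5.63, 6.03 and 5.14 at days 3, 7 and 14, 6.77 in GFP+ sorted cells and 6.79 on the labelled endogenous PV array. It was high on the last pair of arrays and 3.09-fold higher in sorted than in unsorted cells. Mir667 had 6.21, 6.92, 6.31, 5.82, 7.22 and 6.37 in the same order, and sorted cells were 2.65-fold above unsorted cells.

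Mir382 had 5.77, 7.13, 6.55, 6.06, 6.98 and 7.20 in the same order, and Mir679 had 5.52, 6.73, 5.92, 5.30, 6.54 and 6.85. Both were high at day 3, among sorted cells and on the labelled endogenous PV array, which exceeded MEF by 2.70-fold for Mir382 and 2.52-fold for Mir679. Mir329 had 7.03 in MEF and 8.19 on the labelled endogenous PV array, 2.24-fold higher. Mir323 was under the floor in MEF and at 6.19 at day 3, a difference of at least 2.26-fold. For Rian and for these microRNA genes other than Mir665, day 3 lay above day 7. Dlk1, the protein-coding gene expressed from the other parental copy of the domain, had its higher value at day 7. These microRNA genes were named for their calls, some of them at day 3, so this order was partly built into the choice. Over all 34 after flooring, day 7 was above day 3 for 4 and below it for 17. The other microRNA genes had 66 and 81. The probe set shared by Meg3 and the Mir1906 copies was also higher at day 7, with 8.50 at day 3 and 8.62 at day 7.

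**Figure D4:**
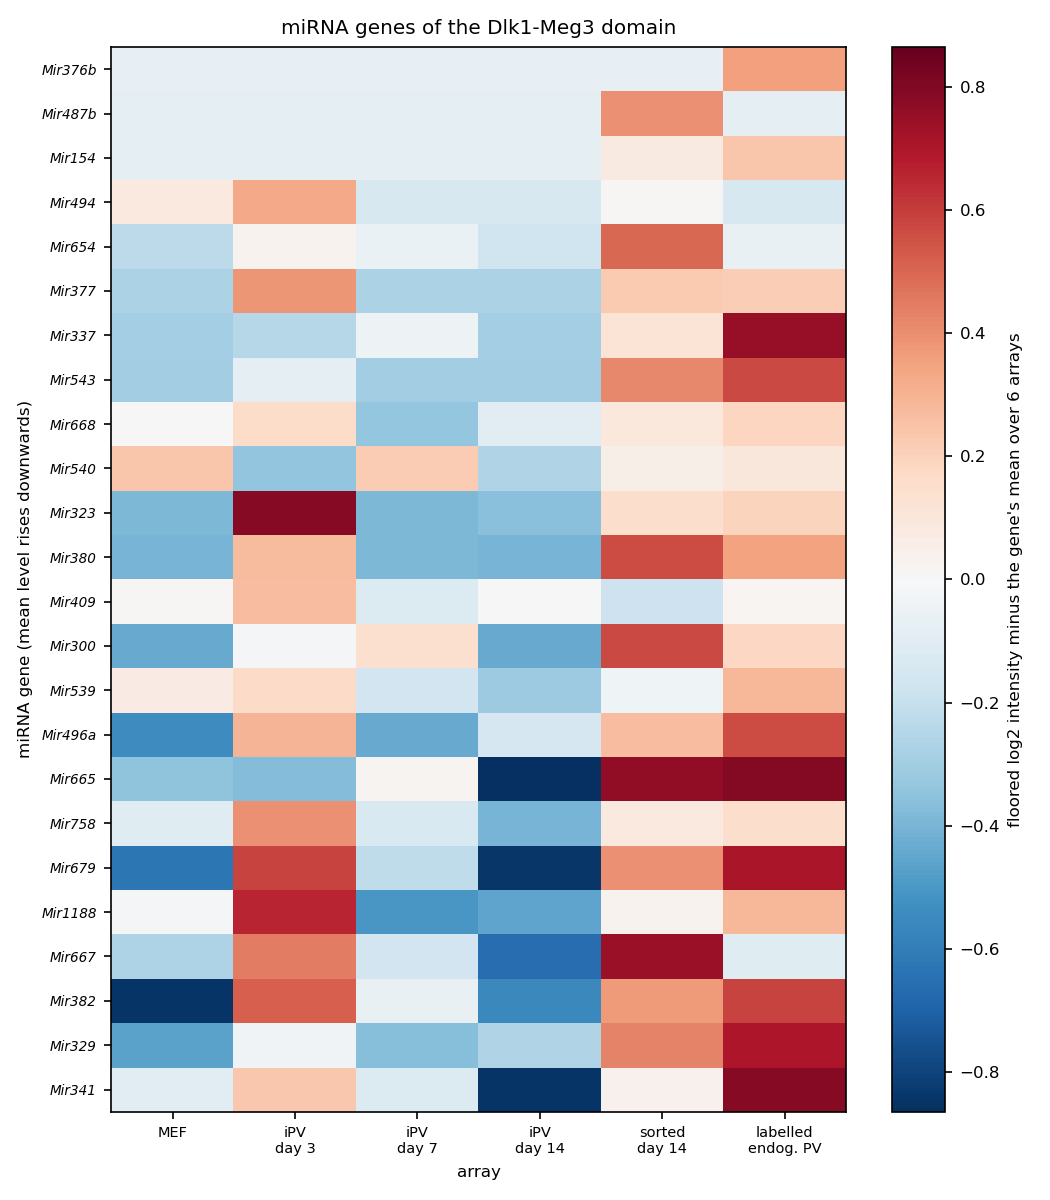
Heat map of the 24 microRNA genes of the Dlk1-Meg3 domain above the floor on any array (vertical axis, ordered by mean level) on the 6 arrays (horizontal axis), coloured by floored log2 intensity minus the gene's own mean over the arrays, red above it and blue below it. Mir665, Mir667 and Mir679 are blue at day 14 and red in sorted cells, where their values were 5.14 against 6.77, 5.82 against 7.22 and 5.30 against 6.54.

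Other imprinted genes were read from a list of 52. Of these, 44 had a value and 33 were above the floor on any array, and no planned comparison called more than 2 of them in either direction. The 2 called higher, 4.55% of the 44, stood against 3.67% of all genes for sorted cells over MEF, 1.26% for sorted over unsorted cells and 1.36% for sorted cells over the labelled endogenous PV array. Peg10, a paternally expressed gene derived from a retrotransposon, had 6.56 in MEF, then 8.003, 7.24 and 7.13 at days 3, 7 and 14, 8.44 in GFP+ sorted cells and 6.80 on the labelled endogenous PV array. It was 3.70-fold higher in sorted cells than in MEF. Zim1, a zinc-finger gene beside Peg3 that is expressed from the opposite parental copy, had 8.07, 8.44, 8.20, 7.99, 9.37 and 8.60 in the same array order. Like Peg3 it was highest in sorted cells, 2.60-fold above unsorted cells. Slc38a4, an amino acid transporter, had 8.20 in MEF and 6.38 on the labelled endogenous PV array, 3.52-fold lower. Dcn, the matrix protein decorin, had 12.09 and 13.17 there.

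The genes whose levels ran most like each member over the 6 arrays were sought among 2367 named genes spanning at least 2-fold. The closest to Dlk1 were Cdh6, a cadherin (Pearson r = 0.993), and Slc6a14, an amino acid transporter (0.982). Cdh6 was also close to Cdkn1c (0.961), after Pkdcc, a secreted kinase (0.979). Mest ran closest to the Wnt receptor gene Fzd1 (0.973) and the secreted Wnt antagonist gene Sfrp4 (0.928). Peg3 ran closest to Spint2, a protease inhibitor (0.988), and Cdh18, a cadherin (0.986), and Plagl1 to the noncoding RNA Carmn (0.976) and the prostaglandin receptor gene Ptgfr (0.968). Among the members themselves the highest coefficient was 0.957, between Dlk1 and Cdkn1c, and the lowest was -0.35, between Mest and Ndn. Peg3 and Plagl1 had 0.04. With 6 arrays and the closest of many genes picked, coefficients of this size describe these arrays only.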

How the data were processed

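Total RNA of 6 samples (6 µg each, biotin label) was hybridised to Affymetrix arrays, 1 per group, so the number of arrays limits the precision. The log2 values analysed were deposited as 1 table, which the authors made with Affymetrix Expression Console, per the submitters' processing notes. Summarisation, normalization, software version and build were not given in the sources used here. That the scale is log2 was inferred from the range of the values.

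Of 41345 probe sets, 5333 numbered as controls were left out. Of the rest, 23521 had 1 gene symbol in the platform annotation, 1814 several and 10677 none. RefSeq (GRCm38.p6) held 21994 of the 22180 genes' identifiers and changed 0 symbols. Differences of log2 values after the floor of 5.01 were called at 2-fold, with Python 3.11.15, NumPy 2.4.6 and pandas 2.3.3, in code tested on simulated data. The technical spread was the standard deviation between the log2 differences of a gene's 2 brightest probe sets, over the root of 2, from 327 to 403 genes.

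The members and lists were chosen with earlier results of these data known. Named beside the members were list genes with a 2-fold difference in any of 7 planned comparisons, at most 6 per list, and the 2 genes most correlated with each member spanning 2-fold. Day 7 against day 3, day 14 against day 7, the promoter motifs and the use of shared probe sets were added after the data were seen.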

Additional observations from a re-analysis of the deposited data

How the results depend on the processing

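With 1 array per group, nothing could be left out and re-estimated. No paired analysis was possible because each group has 1 array. Of the 81 differences of single members (9 genes in 9 comparisons), none changed sign while called under any alternative. Without a floor all 81 kept their call, 78 did after quantile normalization and 76 with housekeeping centring, while 1 call was lost with the floor raised to 6.58. Counts of members called moved as follows, and the cause was not tested beyond each setting's construction. Against MEF, housekeeping centring left 1 member higher at day 3, 2 at day 7 (3 as deposited), 0 for sorted cells and 0 for the labelled endogenous PV array. Quantile normalization gave 1 and 0 for those last 2 arrays and 2 for sorted over unsorted cells. The raised floor left 1 lower at day 14 against MEF. The mean of all probe sets left 1 there and 0 for sorted cells against the labelled endogenous PV array. It left 3 of 4 lower at day 14 against day 7. Each of these changes with the mean came through Plagl1, whose mean fell under the floor in the comparison and was raised to it. A 4-fold threshold left 0 in every comparison except day 14 against day 7, with 2 lower, and sorted against unsorted cells, with 1 higher. Allowing probe sets shared with other genes, which brings in H19 and another Meg3 probe set, gave 2 higher for sorted against unsorted cells, 1 higher for day 7 against day 3, 4 higher for day 7 against MEF, 5 lower for day 14 against day 7 and, there, a median of -1.17.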
